A study of Mus musculus with 32 samples.

Results

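The 102 mouse miRNAs described here are carried by the Febit Geniom Biochip but have no counterpart of the same name on the Affymetrix miRNA array that was hybridized with the same RNA. They were chosen by name alone, with the prefix of the mouse removed and star forms read alike, and make up 102 of the 710 miRNAs of the Febit array, the other 608 being on both arrays. Since only 1 of the 2 platforms carries them, none of their values could be set against a measurement by the other method. The Febit array synthesizes capture probes in place as reverse complements of mature miRNAs and labels the bound miRNA on the chip by primer extension, with 8 features for each miRNA.

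RNA came from a transgenic clone of D3 mouse embryonic stem (ES) cells, αPIG44, which carries a puromycin resistance gene and EGFP under the α-myosin heavy chain promoter. All samples therefore share 1 clone and its transgene. Day 0 samples were undifferentiated ES cells of a line kept on mouse embryonic fibroblasts. For day 0 RNA the study's methods describe a last passage onto gelatin-coated dishes. The samples of days 12, 19 and 26 were Cor.At cardiomyocytes, that is, cells of differentiated embryoid bodies that survived puromycin given from day 9. Survival depends on activity of the cardiac promoter of the transgene, so the later samples hold only cells in which it was active, together with any cell that escaped selection. Each day had 2 cultures, a and b, which the study describes as biological duplicates. The titles and time labels give the day, but the culture text of most day 19 and day 26 records describes a longer suspension culture followed by a short time on the dish, whereas the study's methods describe a longer time on the dish.

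A mature miRNA guides the silencing complex to messenger RNAs, mostly by pairing of its seed, bases 2 to 8 from its 5′ end. miRNAs with the same seed are grouped into families because they can pair with the same sites. Numbers follow the order in which miRNAs were registered, letters mark closely related mature sequences, and the suffixes -5p and -3p name the arms of 1 hairpin precursor. Most of the miRNAs described here carry high numbers, from miR-1892 to miR-1983 and from miR-2132 to miR-2183, and little is known of what they do. ES cells are known for the miR-290 to miR-295 cluster and cardiomyocytes for miR-1, miR-133, miR-208 and miR-499, all of which lie outside the set.

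Of the 102, 55 had no mature miRNA of the same name in the RefSeq annotation of GRCm38.p6 and are given without sequence. They include 8 of the 14 with signal over 2 times the array median on 2 or more arrays. miR-1937a, miR-1937b, miR-1937c and miR-2142 are among those 8. Also unmatched are miR-2135, miR-2143, miR-1274a and miR-2145, which passed the test between days. The other 47 matched by name. The 13 sequences below belong to those that gave signal over 2 times the array median on 2 or more arrays (miR-1892, miR-1894-3p, miR-1894-5p, miR-1895, miR-2137 and miR-669n), to those that passed the test between days (miR-1899, miR-1933-3p, miR-1938, miR-1952, miR-1954 and miR-767) and to miR-1961, shown for its seed. Capitals mark the seed.
miR-1892: aUUUGGGGacgggagggaggau
miR-1894-3p: gCAAGGGAgagggugaagggag
miR-1894-5p: cUCUCCCCuaccaccugccucu
miR-1895: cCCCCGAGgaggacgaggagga
miR-2137: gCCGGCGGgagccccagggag
miR-669n: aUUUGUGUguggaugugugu
miR-1899: aGCGAUGGccgaaucugcuucc
miR-1933-3p: cCAGGACCaucagugugacuau
miR-1938: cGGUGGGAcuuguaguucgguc
miR-1952: uCUCCACCcuccuucug
miR-1954: aCUGCAGAgugagacccuguu
miR-767: uGCACCAUgguugucugagca
miR-1961: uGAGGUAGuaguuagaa

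No 2 of these 13 share a seed, and none of the 47 matched miRNAs shares one with another of the 47. Against all 1679 mature mouse miRNAs of the table, 7 of the 47 share a seed with some other miRNA. miR-1961 has the seed of the let-7 family, a set of miRNAs that accumulate as many cell types differentiate, and its first 13 bases are those of let-7g-5p and let-7i-5p. miR-1928 has the seed of miR-221-3p and miR-222-3p.

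GC content had a median of 63.6% in the 6 matched miRNAs with signal over 2 times the array median on 2 or more arrays (range 40% to 85.7%). In the other 41 matched miRNAs the median was 54.5% (range 35.3% to 68.2%). miR-2137 was at the top of the range of the 6 and the GU-rich miR-669n at its bottom, so a high GC content was not common to all of them.

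Of the 47 matched miRNAs, 38 lie inside the span of another annotated gene, regardless of strand. miR-1895 lies at chr3:134240515-134240536 on the minus strand, inside the span of Cxxc4, which codes for an inhibitor of Wnt signalling. miR-2137 lies at chrX:72992113-72992133 on the plus strand within Zfp185, and miR-669n at chr3:115979905-115979924 on the plus strand within Slc30a7, a zinc transporter gene. Both arms of miR-1894 lie within Ppp1r10 on chromosome 17, and miR-1954 at chr2:32652342-32652362 lies within Eng, which codes for endoglin, a co-receptor for TGF-β. miR-1897-3p lies within Sox2ot, the long non-coding transcript that overlaps the pluripotency gene Sox2, and miR-1906 has a copy within the imprinted transcript Meg3 on chromosome 12 and another on the X chromosome.

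The deposited values of the 8 Febit arrays were checked before the comparisons. On all 8 arrays, values after variance stabilizing normalization (VSN) ranked the miRNAs exactly as the raw column of that day and culture did (Spearman correlation 1). On the VSN scale, a generalized log2, small raw differences of dim miRNAs were large. On day 0 a, raw intensities of 868 (miR-1) and 1056 (miR-1274a) had VSN values of 4.23 and 7.96. On the same array, 4049 (miR-293) and 5049 (miR-292-3p) had 12.19 and 12.58. The quantile normalized record titled day 12 a ranked the miRNAs as raw day 19 b did, and the record titled day 19 b as raw day 12 a did (correlation 1 each), so neither was used. On 7 arrays the median raw intensity lay between 928 and 992, but on day 26 b it was 228. Of the 6 cardiomyocyte miRNAs, 3 exceeded 2 times the array median on both day 26 arrays and 0 on both day 0 arrays, with summed raw intensities of 20220.25 and 11434 at day 26 and 5720 and 5336 at day 0. Of the 12 ES-cell miRNAs, 0 did so at day 26 and 4 at day 0. Among the markers of other cells, miR-143 and miR-145 of smooth muscle exceeded 2 times the array median on all 6 later arrays. The study counts miR-143 among typical cardiac miRNAs and reports a rise of miR-145 by day 12. Of the 3 fibroblast miRNAs, only miR-214 exceeded that level, on 3 arrays (2.02 times on day 0 b, 5.08 on day 12 a and 2.60 on day 26 b). Those of blood, endothelium and nervous tissue stayed at most 1.11 times the median.

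Most of the 102 miRNAs stayed close to the array median, which serves here as the level of a dim miRNA because blank features were not used. Raw signal, taken as the median of the 8 features, exceeded 1.5 times the array median on no array for 72 of 102 (70.6%), which is near the share over all miRNAs of the array (498 of 710, 70.1%). It exceeded 2 times the median on 2 or more arrays for 14 (13.7%), where the share over all 710 was 12.8%. It did so on all 8 arrays for 5 (4.9%), miR-1937a, miR-1937b, miR-1937c, miR-2142 and miR-1895, against 1.83% of all 710. The number over 2 times the median on single arrays was 7 and 15 at day 0, 11 and 6 at day 12, 6 and 5 at day 19 and 10 and 16 at day 26, where the highest count belongs to day 26 b, the array with the low median.

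The lettered family miR-1937 was far above the array median on all arrays. miR-1937a gave raw intensities of 16896 and 57589 at day 0, 51912 and 38529 at day 12, 32891.5 and 25221.75 at day 19, and 55388.75 and 28430.5 at day 26. miR-1937b gave 15199.5 and 41253.5 at day 0, 36616.5 and 28010.5 at day 12, 27766.25 and 19837 at day 19, and 47142.75 and 28914.75 at day 26. miR-1937c gave 3041 and 13655 at day 0, 4889 and 4769 at day 12, 4297 and 3673 at day 19, and 7750 and 3965 at day 26. In all 3, day 0 a was the lowest array of the 8, and the raw intensities of every later day overlapped with those of day 0. In units of the array median day 26 b was the highest array of all 3, and both day 26 arrays of miR-1937b (47.5 and 126.8) lay above both of day 0 (15.8 and 44.3).

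None of the 3 was called between a later day and day 0 on VSN values. The VSN fold change of miR-1937a was 0.24 ± 0.64 log2 at day 12, -0.38 ± 0.64 at day 19 and 0.10 ± 0.64 at day 26 against day 0 (SE of limma's fit, 2 arrays a day). Those of miR-1937b were 0.07, -0.36 and 0.32 log2 (SE 0.62), and those of miR-1937c were -0.71, -1.02 and -0.32 log2 (SE 0.71). At day 26 the value depended on the scale, since raw values divided by the array median gave 1.34, 1.55 and 0.77 log2 for miR-1937a, miR-1937b and miR-1937c, also uncalled. After quantile normalization of the raw values miR-1937b was called higher at all 3 later days, by 0.56, 0.56 and 0.72 log2 at days 12, 19 and 26 (limma, adjusted p = 0.0395, 0.0295 and 0.0108). That setting gives every array the same set of values by rank. miR-1937b ranked below miR-1937a and miR-2142 on both day 0 arrays, and above miR-2142 on every later array. Its rank beside these was the same on both arrays at days 0, 12 and 19. These values thus follow rank, and their p does not measure the spread of its level. Of the features over 60000, near the upper end of the scanner's scale, 8 belonged to miR-1937a, 2 to miR-1937b and 3 to miR-2142.

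miR-2142 was far above the array median on all arrays. It gave raw intensities of 25590 and 52520.25 at day 0, 14063.5 and 15767.5 at day 12, 17396 and 18068 at day 19, and 20332.5 and 14887.5 at day 26. In raw intensity both day 0 arrays lay above all 6 later arrays, but in units of the array median day 26 b was the highest (65.3, beside 26.7 and 56.4 at day 0). The VSN difference did not pass the test: the fold change was -1.65 ± 0.59 log2 at day 12 (limma, adjusted p = 0.107), -1.35 ± 0.59 at day 19 (adjusted p = 0.233) and -1.35 ± 0.59 at day 26 (adjusted p = 0.247). With a variance trend and a robust prior day 12 was called (adjusted p = 0.0433), and on raw values divided by the array median the difference at day 26 was -0.08 log2.

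miR-1895 gave raw intensities of 10138.25 and 8890 at day 0, 16808 and 8410 at day 12, 6762 and 5333 at day 19, and 13907 and 12763 at day 26. Both day 19 arrays were below all others, and the 2 arrays of day 12 lay on either side of both day 0 arrays. Fold changes were 0.05, -1.01 and 0.29 log2 at days 12, 19 and 26 against day 0 (SE 0.71), with limma adjusted p of 0.984, 0.466 and 0.893. On raw values divided by the array median the difference at day 26 was 1.48 log2.

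**Figure D1:**
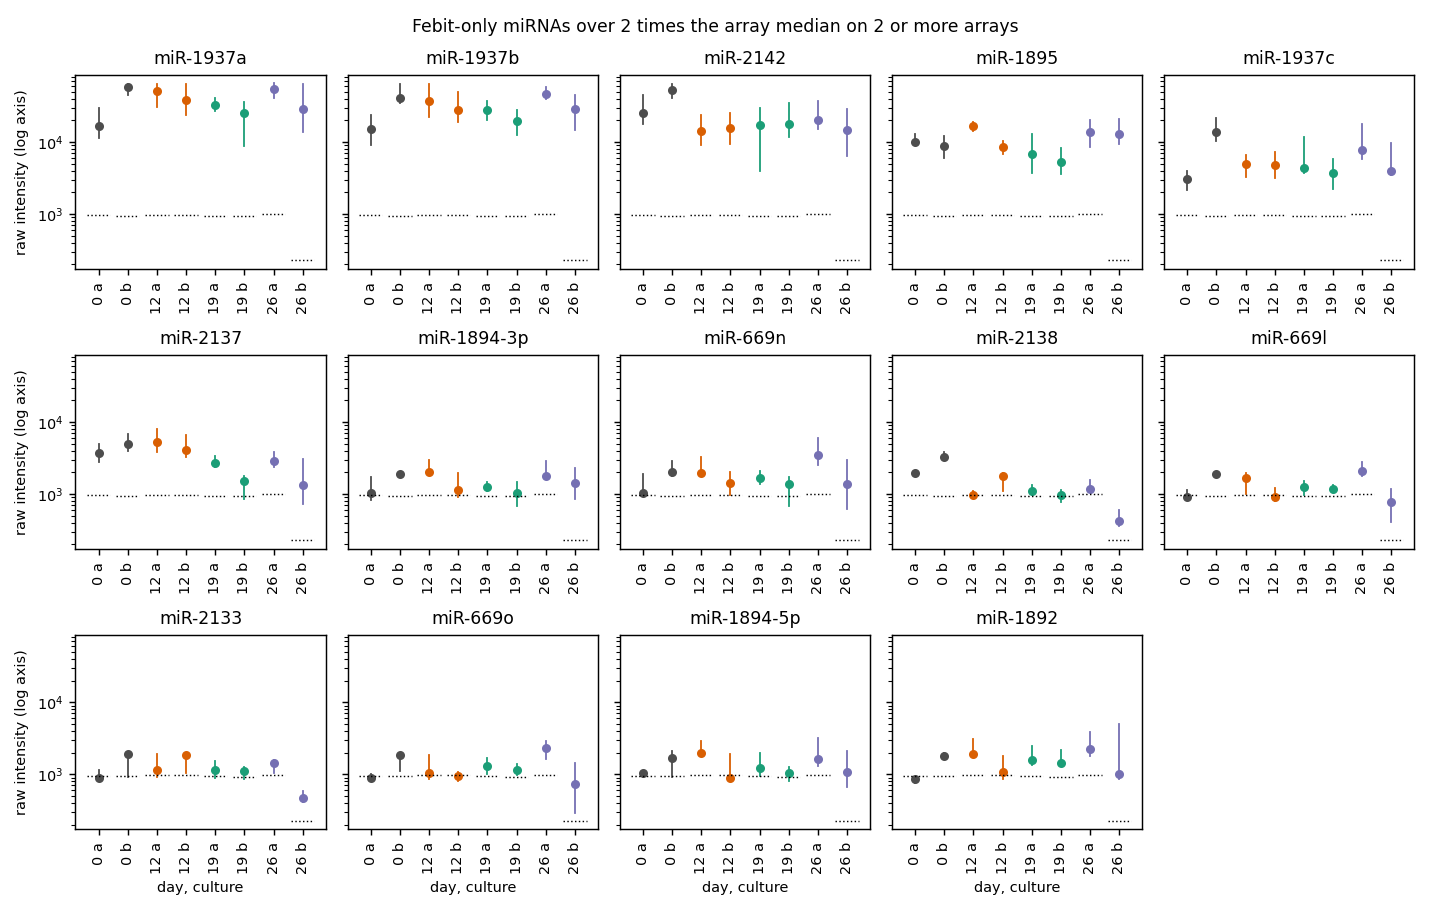
Raw intensity (log axis) on the 8 arrays, by day and culture, of the 14 Febit-only miRNAs over 2 times the array median on 2 or more arrays. Points are medians of the 8 features, vertical lines run between the lowest and highest feature, and dotted lines mark the array median, which is 228 on day 26 b. miR-1937a, miR-1937b, miR-2142, miR-1895 and miR-1937c stand above it on every array.

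The other 9 of the 14 were within a few times the array median and are named here after their values were seen. miR-2137 exceeded 2 times the array median on 7 arrays. It gave 3701 and 4925 at day 0, 5289 and 4077 at day 12, 2677 and 1536 at day 19, and 2865 and 1360 at day 26. In raw intensity all 4 arrays of days 0 and 12 were above all 4 of days 19 and 26, but in units of the array median day 26 b was the highest of the 8 (5.96). The VSN fold changes against day 0 were -1.85 ± 0.64 log2 at day 19 (limma, adjusted p = 0.146) and -1.41 ± 0.64 at day 26 (adjusted p = 0.275), where raw values divided by the array median gave -1.06 and -0.12 log2.

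miR-2138 gave 1961 and 3297 at day 0, 960 and 1808 at day 12, 1120 and 968 at day 19, and 1188 and 424 at day 26. Both day 0 arrays were above all 6 later arrays. Its fold changes of -2.91, -3.28 and -2.76 log2 (SE 0.96) had limma adjusted p of 0.082, 0.0766 and 0.14 at days 12, 19 and 26, and were thus not called. The remaining 7 of the 14 are miR-669l, miR-669n, miR-669o, miR-1892, miR-1894-3p, miR-1894-5p and miR-2133, all without a call in any comparison.

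miR-669 is a large mouse family, most of whose precursors lie in an intron of Sfmbt2. The 4 letters found only on the Febit array were all highest on day 26 b relative to the array median. miR-669n gave 1036 and 2005 at day 0, 1941 and 1408 at day 12, 1656 and 1396 at day 19, and 3533 and 1404 at day 26, where the array medians were 992 and 228. miR-669o gave 884 and 1869 at day 0, 1056 and 932 at day 12, 1284 and 1164 at day 19, and 2301 and 736 at day 26. In both, day 0 b was well above day 0 a.

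The fold changes at day 26 against day 0 were 1.84 ± 0.81 log2 for miR-669n, 2.44 ± 1.32 for miR-669o, 1.94 ± 1.43 for miR-669l and 0.89 ± 0.65 for miR-669m, with limma adjusted p of 0.255, 0.385, 0.571 and 0.57. The median of the 4 was 1.89, and that of all 710 was -0.07. The 12 letters of the family on both arrays had a median of 0.14 at day 26, with 6 positive and 6 negative and 0 called.

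Both arms were measured for several precursors. miR-1933-3p gave 1012 and 1080 at day 0, 932 and 996 at day 12, 1580 and 1160 at day 19, and 1352 and 516 at day 26, while miR-1933-5p stayed below its array median on all 8 arrays. Of miR-1897, the -5p arm exceeded 1.5 times the array median on 2 arrays, both of day 26, and the -3p arm stayed below the median on all 8. Neither arm of miR-1839 or of miR-1941 exceeded 1.5 times the median on 2 or more arrays, and none of these 4 was called in any comparison. The 3 forms of miR-1982 were uncalled throughout, and so were miR-1946a and miR-1946b, whose highest arrays in raw signal were day 12 a and day 0 b.

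miR-1961, which has the let-7 seed, stayed near the array median throughout, with 872 and 952 at day 0, 896 and 988 at day 12, 840 and 800 at day 19, and 804 and 192 at day 26. Of the 9 let-7 seed miRNAs that both platforms carry, miR-98 never exceeded 2 times the median, 7 did so only on day 26 b, and let-7d did so on 2 arrays. By its own probe let-7d gave 920 and 928 at day 0, 1168 and 928 at day 12, 1672.25 and 924 at day 19, and 2809 and 1672.5 at day 26. miR-1928, with the seed of miR-221-3p and miR-222-3p, also stayed near the median (976 and 940 at day 0, 836 and 228 at day 26), and so did miR-221 and miR-222 themselves, at most 1.1 times the median. All miRNAs of this paragraph were named after their values were seen.

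Changes against day 0 were tested with limma on the VSN values of all 710 miRNAs and the 8 arrays, a miRNA being called at an adjusted p under 0.05. At day 12, 12 of the 102 miRNAs (11.8%) differed from day 0, 11 of them lower and 1 higher, where the share over all 710 was 11.3% (7.61% lower and 3.66% higher). At day 19, 4 were called (3.92%), all lower, beside 6.34% of all 710 (2.96% lower and 3.38% higher). At day 26, 2 were called (1.96%), both lower, beside 7.61% of all 710 (1.55% lower and 6.06% higher). Over the 3 comparisons together, 14 of the 102 were called at least once (13.7%), beside 16.2% of all 710. An F test over the same comparisons called 10 (9.8%), against 16.9% of all 710. The median fold change of the 102 was -0.01, -0.30 and -0.24 log2 at days 12, 19 and 26, beside 0.07, -0.05 and -0.07 over all 710.

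These counts changed when single arrays were left out. The adjustment ran over all miRNAs of the array, whose counts with an array left out are not given here. The changes therefore cannot be read as particular to the 102. Leaving out an array of a day not compared keeps the fold change and alters the test only through the estimate of the spread. That estimate has 4 residual degrees of freedom with all 8 arrays. The 12 of day 12 became 1 without day 12 a, 4 without either day 19 array and 5 without either day 26 array, the 4 of day 19 became 0 without either day 19 array and 1 without either day 26 array, and the 2 of day 26 became 0 without either day 26 array, 1 without either day 19 array and 5 without day 0 b. On raw log2 values centred on the array median none of the 102 was called in the 3 comparisons, with 5, 7 and 18 at an unadjusted p under 0.05.

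miR-2135 was the 1 miRNA of the 102 called at all 3 later days. Its raw intensity was 1768 and 2993 at day 0, 960 and 852 at day 12, 976 and 936 at day 19, and 988 and 324 at day 26, in units of the array median 1.84 and 3.21 at day 0 and between 0.87 and 1.42 on the 6 later arrays. Both ES-cell arrays were above all later arrays, where the signal lay near the array median. The VSN fold change was -5.25 ± 0.75 log2 at day 12 (limma, adjusted p = 0.0031), -3.70 ± 0.75 at day 19 (adjusted p = 0.0173) and -3.49 ± 0.75 at day 26 (adjusted p = 0.0165). On raw values divided by the array median the same differences were -1.39, -1.25 and -1.03 log2 and not called.

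The call of miR-2135 at day 12 held when any of the 8 arrays was left out, with a highest adjusted p of 0.0213. At day 19 it was lost without day 19 a (adjusted p = 0.185) or day 19 b (0.14), and at day 26 without day 26 a (0.174), day 26 b (0.107) or day 0 b (0.0523). The lowest of the 8 features of day 0 a read 1048, inside the range of the later arrays.

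miR-2143 had a like pattern, apart from 1 array of day 12. It gave 1772 and 2921 at day 0, 1076 and 1944.75 at day 12, 1028 and 976 at day 19, and 1072 and 352 at day 26. The fall was called at day 19 (-3.26 ± 0.77 log2, limma adjusted p = 0.0373) and day 26 (-3.04 ± 0.77, adjusted p = 0.0438), and not at day 12 (-1.91 ± 0.77, adjusted p = 0.158). For these calls at days 19 and 26 no feature of the later arrays reached the lowest feature of day 0. The call at day 19 was lost without day 0 b, either day 19 array or either day 26 array, and that at day 26 without day 0 b or any array of days 19 and 26, with adjusted p up to 0.27.

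miR-1274a fell at day 12 and was not called against day 0 at the later days. It gave 1056 and 1969 at day 0, 880 and 864 at day 12, 1208 and 1192 at day 19, and 1921 and 444 at day 26, or 1.94 and 1.95 times the array median at day 26. The fold change was -4.35 ± 0.76 log2 at day 12 (limma, adjusted p = 0.01), lost without day 12 a (adjusted p = 0.0584), and -0.52 and 0.02 log2 at days 19 and 26 (adjusted p = 0.751 and 0.995). Against day 12 it was higher by 3.83 log2 at day 19 (adjusted p = 0.0232) and by 4.37 log2 at day 26 (adjusted p = 0.0169).

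miR-2145 is the third miRNA called at day 12 with raw signal over 1.5 times the array median on an array compared, with 876 and 936 at day 12 and 1016 and 1824.75 at day 0. That signal came from day 0 b alone. Its fold change of -3.45 ± 0.83 log2 had a limma adjusted p of 0.029, and its levels at days 19 and 26 were uncalled.

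The other 9 miRNAs called at day 12 stayed under 1.5 times the array median on all 4 arrays compared, and their raw differences were small. miR-1954 gave 872 and 840 at day 12, against 1024 and 1004 at day 0, which is 0.844 of the day 0 mean, yet its VSN fold change was -3.15 ± 0.57 log2 (limma, adjusted p = 0.01). miR-1965 gave 856 and 904, against 1056 and 1284 at day 0 (-3.56 ± 0.76 log2, adjusted p = 0.0182). The single miRNA called higher, miR-1938, gave 1000 and 1032, against 868 and 824 at day 0 (2.57 ± 0.64 log2, adjusted p = 0.0313).

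The remaining 6 were miR-767, miR-1899, miR-1939, miR-2134, miR-2141 and miR-2182, with VSN fold changes from -2.28 to -2.89 log2. miR-767, which lies within the GABA receptor gene Gabra3 on the X chromosome, gave 904 and 880 at day 12, against 1020 and 1048 at day 0 (-2.53 ± 0.71 log2, limma adjusted p = 0.0471). miR-1899 gave 904 and 848, against 1012 and 984 (-2.55 ± 0.63 log2, adjusted p = 0.0313). In each of these the ranges of the 8 features overlapped between the days.

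At day 19, miR-2141 gave 804 and 812, against 980 and 1372 at day 0 (-3.66 ± 0.81 log2, limma adjusted p = 0.0256), and miR-1964 gave 844 and 800, against 980 and 984 (-2.49 ± 0.63 log2, adjusted p = 0.0464). Neither exceeded 1.5 times the array median on any of the 4 arrays. The summed raw intensity of the 12 ES-cell miRNAs moved with these falls (10788 and 11144 at day 19, 21664.75 and 41991 at day 0), and its part in them was not tested. In RNA of whole cultures, fewer cells of a type and less of a miRNA per cell cannot be told apart.

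**Figure D2:**
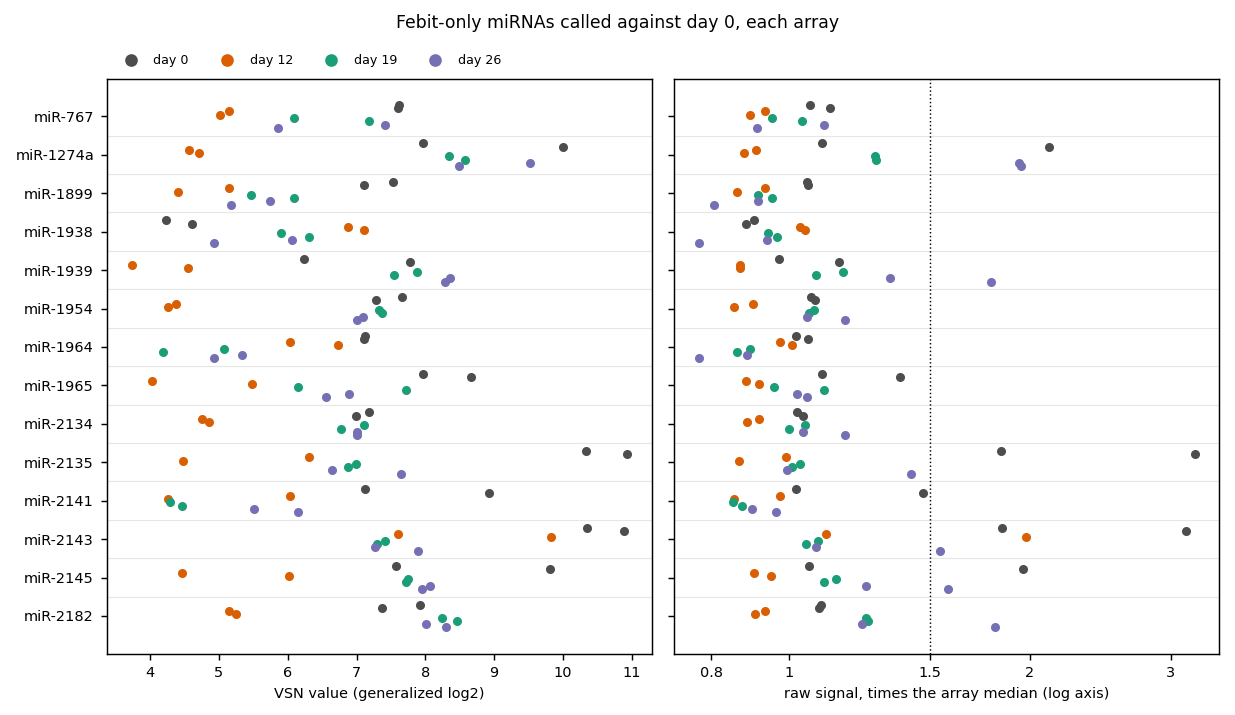
The 14 Febit-only miRNAs called against day 0 at 1 or more later days, with every array as a point coloured by day. The left panel shows VSN values (generalized log2) and the right panel raw signal as multiples of the array median (log axis, dotted line at 1.5). Of the 14, miR-2135 and miR-2143 have both day 0 arrays over 1.5 times the median, whereas miR-1954, with a VSN fold change of -3.15 log2 at day 12, stays between 0.85 and 1.18 times the median on the right.

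**Figure D3:**
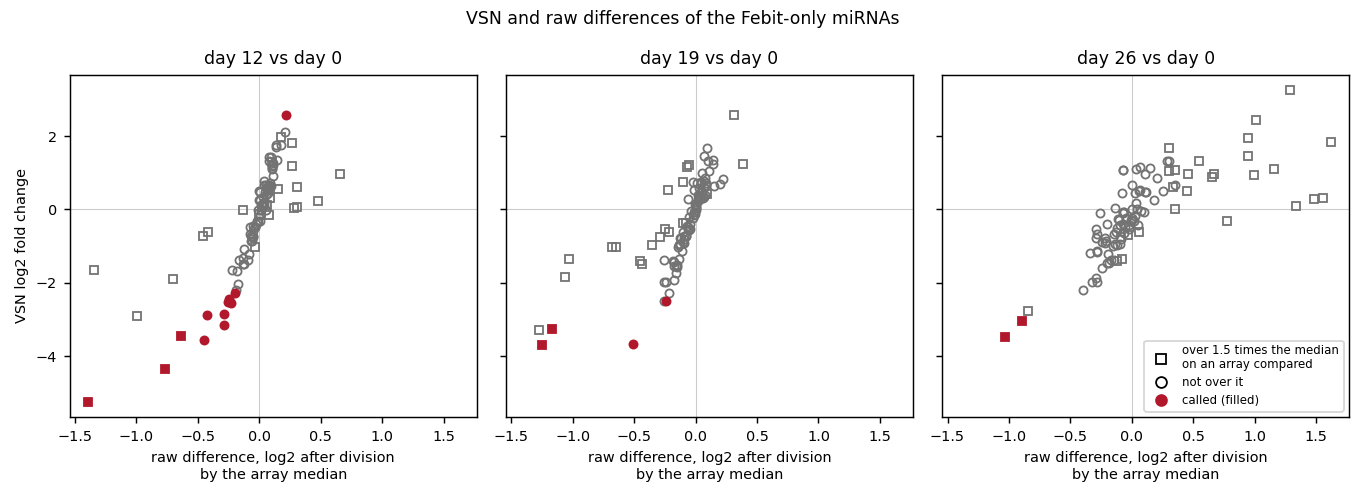
VSN log2 fold change (vertical) against the raw difference in log2 after division by the array median (horizontal) for the 102 Febit-only miRNAs, at days 12, 19 and 26 against day 0. Filled points were called, and squares exceeded 1.5 times the array median on an array compared. The circles climb steeply, so that raw differences under 0.5 log2 reach VSN differences over 3.

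Over all 6 comparisons there were 36 calls in 21 miRNAs, that is 20.6% of the 102, beside 23.2% of all 710. Of these 21, 13 exceeded 1.5 times the array median on no array. In 24 of the 36 calls no array of the 2 days was over that level, and there VSN fold changes of 2.13 to 3.83 log2 in size went with raw differences of 0.18 to 0.52 log2 after division by the array median. In the other 12 calls, with an array over that level, the raw differences were 0.55 to 1.39 log2. Such calls made up 3 of 12, 2 of 4 and 2 of 2 at days 12, 19 and 26 against day 0. Over all 710 they made up 42 of 80, 32 of 45 and 53 of 54 at the same days. Against day 12 they made up 1 of 11 at day 19 and 4 of 7 at day 26. Over all 710 these were 5 of 91 and 32 of 55. All 36 had the same sign on both scales, 29 had raw intensities that did not overlap between the days, and in 2, both of miR-2143, the features did not overlap either. The calls were selected on values of the same arrays, so these counts lend them no support. The shares over all 710 were not counted.

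Calls against day 0 are given next by ranges of registration numbers, chosen with results known. Of the 17 from miR-2132 to miR-2183, 5 were lower and 0 higher at day 12, 3 lower at day 19 and 2 lower at day 26, with a median of -0.86, -0.53 and -0.18 log2. Of the 50 from miR-1927 to miR-1971, 3 were lower and 1 higher at day 12, 1 lower at day 19 and 0 at day 26, with medians of 0.03, -0.18 and -0.35 log2. Of the 17 from miR-1893 to miR-1907, 1 was lower at day 12 and 0 were called at days 19 and 26. Over all 710 the shares called lower were 7.61%, 2.96% and 1.55% at days 12, 19 and 26. Whether the ranges differ from each other or from the other miRNAs was not tested.

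Between the later days the largest number of calls fell at day 19 against day 12. Of the 102, 11 were called (10.8%), 7 higher and 4 lower, where the share over all 710 was 12.8% (9.15% higher and 3.66% lower). At day 26 against day 12, 7 were called (6.86%), all higher, beside 7.75% of all 710 (7.32% higher and 0.423% lower). Between days 26 and 19 none of the 710 was called by limma (0%), and 1 of the 102, miR-2146, had an unadjusted p under 0.05 (2.04 log2 higher at day 26).

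Only 1 of the 11 at day 19 exceeded 1.5 times the array median on an array of the 2 days. It was miR-1933-3p, with 1580 and 1160 at day 19 and 932 and 996 at day 12 (2.61 ± 0.65 log2, limma adjusted p = 0.0305). The others that were higher were miR-1274a, miR-1939, miR-1954, miR-1981, miR-2134 and miR-2182, and those that were lower were miR-1934, miR-1942, miR-1952 and miR-2146. Among them miR-1934 gave 784 and 728 at day 19, against 988 and 1000 at day 12 (-3.29 ± 0.93 log2, adjusted p = 0.0438).

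Of the miRNAs higher at day 19, 5 had been called lower at day 12 than at day 0. miR-2182 gave 1052 and 1016 at day 0, 904 and 892 at day 12, 1180 and 1164 at day 19, and 1224 and 412 at day 26, and miR-1939 gave 932 and 1076, 840 and 856, 1104 and 1004, and 1328 and 408 at the same days. On VSN values and in units of the array median both day 12 arrays were the lowest of the 8 for both miRNAs, while in raw intensity day 26 b was. These comparisons share the day 12 arrays, so that a low value of those arrays enters each of them.

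At day 26 against day 12, miR-1274a, miR-1897-5p, miR-1939 and miR-2182 exceeded 1.5 times the array median on an array compared, while miR-1954, miR-1981 and miR-2134 did not. For miR-1939 and miR-2182 that array was day 26 b alone (1.79 and 1.81 times its low median). miR-1897-5p gave 1512 and 664 at day 26, or 1.52 and 2.91 times the array median, against 1032 and 864 at day 12 (3.12 ± 0.81 log2, limma adjusted p = 0.0463). The raw intensities of all 7 overlapped between the days, day 26 b being the array with a median of 228.

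The counts between later days also changed when single arrays were left out, those of days not compared included. Here too the counts over all miRNAs of the array are not given, so the changes cannot be read as particular to the Febit-only miRNAs. The 11 of day 19 against day 12 became 0 without any 1 of the 4 arrays compared, 5 without either day 26 array and 20 without either day 0 array. The 7 of day 26 against day 12 became 0 without any 1 of the arrays of days 12, 19 and 26, and 15 without either day 0 array.

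The raw signals themselves differed in shape between the earlier and the later arrays. Features between 1200 and 1600 made up 0.23% to 2.06% of all features on the 4 arrays of days 0 and 12, but 8.54% to 14.9% on day 19 a, day 19 b and day 26 a. On the earlier arrays a feature just above the array median thus read either below 1200 or above 1600, and features between 1600 and 2000 made up 2.57% to 10.8%. All 35639 features below 1100 were multiples of 8, whereas 14 of 2805 above 2000 were (0.499%). Readings such as 2113, 2993 and 3545 lay just above such a multiple, so the contrast does not show a finer step there. These limits were set after the values were seen.

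Some of the dim miRNAs named above lie on either side of this gap. The day 12 arrays read 1076 (a) and 1944.75 (b) for miR-2143. Day 0 a read 1772 for miR-2143 and 1768 for miR-2135. miR-669l read 908 and 1917 on the day 0 arrays and 1684 and 920 on those of day 12, but 1252 and 1176 on those of day 19. In comparisons of days 19 or 26 with days 0 or 12 the shape of the raw scale and the day cannot be told apart. The comparison of day 12 with day 0 lies within the arrays that have the gap.

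**Figure D4:**
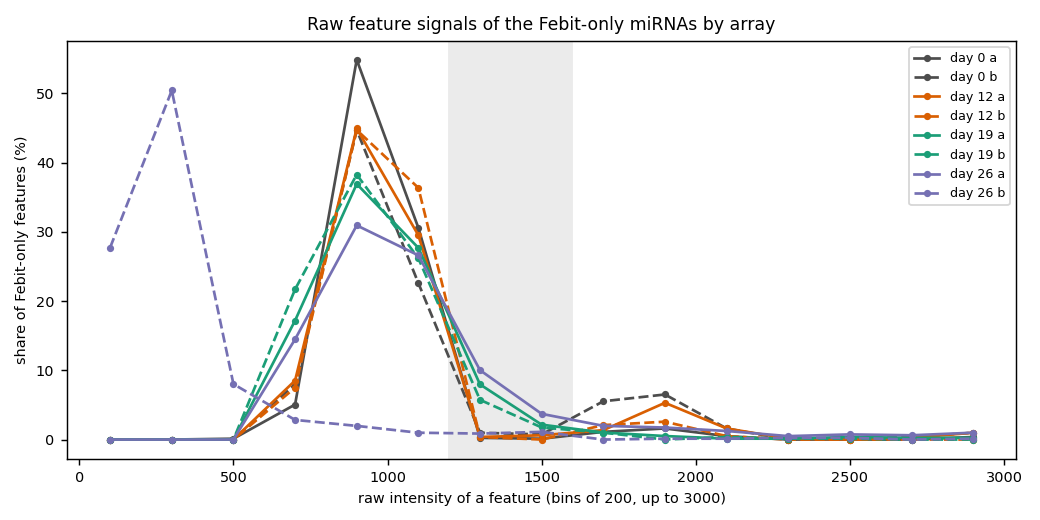
Share of the features of the 102 Febit-only miRNAs (vertical, percent) by raw intensity in bins of 200 up to 3000, for each array. Solid lines are cultures a and dashed lines cultures b. In the shaded range from 1200 to 1600 the 2 bins hold at most 0.983% each on the arrays of days 0 and 12 and between 1.75% and 10.02% on day 19 a, day 19 b and day 26 a, and day 26 b has its peak near its median of 228.

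The 2 arrays of a day resembled each other more at the later days. Across the 102 miRNAs, which are not independent replicates, VSN values of cultures a and b had a Pearson correlation of 0.69 at day 0, 0.71 at day 12, 0.92 at day 19 and 0.93 at day 26. For raw values the Spearman correlation was 0.38, 0.40, 0.85 and 0.82 at the same days. At day 0 the brightest miRNAs differed most in level, the 5 bright on all arrays being a median 2.71 times as high on day 0 b as on day 0 a, with a range of 0.88 to 4.49 times.

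**Figure D5:**
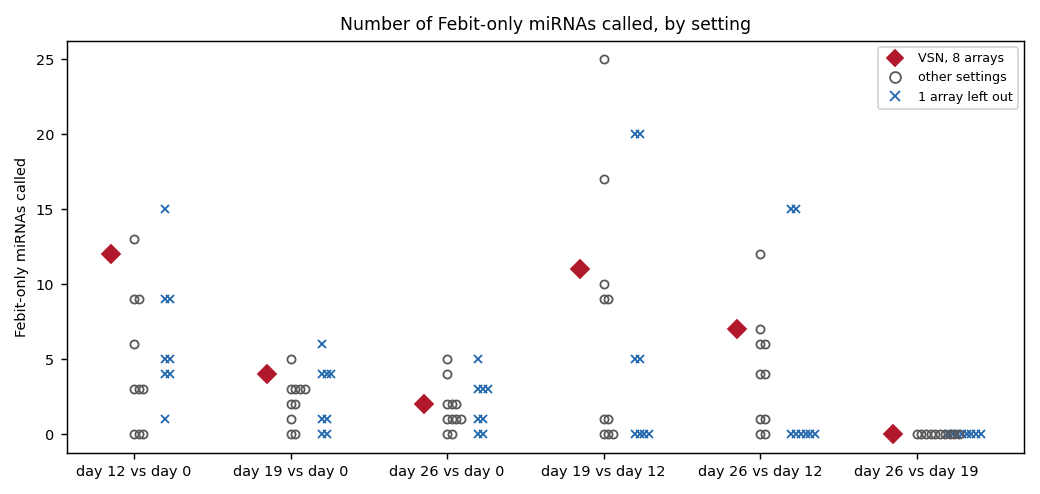
Number of Febit-only miRNAs called in each comparison (vertical) on VSN values of the 8 arrays (diamonds), under the other settings tried (circles) and with 1 array left out (crosses). Day 26 against day 19 gave 0 in every setting shown, and day 19 against day 12 ranged between 0 and 25.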

How the data were processed

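Total RNA of 8 cultures was labelled on the chip and read on 8 Febit arrays. The deposited intensity values are the scanner signal of 8 features for each miRNA, without background correction. From these the authors took the median after background correction, and deposited it as log2 values after VSN and as log2 values after quantile normalization. The authors deposited Affymetrix log2 values too, of which only the miRNA names were used here.

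The members and lists were chosen with earlier results of these data known. VSN values of all 710 miRNAs on the 8 arrays entered 1 linear model with day means (R 4.3.3, limma 3.58.1, empirical Bayes, 4 residual degrees of freedom). For each of 6 comparisons, Benjamini-Hochberg adjustment ran over the 710, with calls at 0.05. The fit was also run on simulated normal values with 1 spread for all miRNAs, unlike these data, which lends no support to the calls. Raw signal is the median of the features, set against the array median at 1.5 and 2 times. Arrays limit the precision by their number, 2 a day. Named are all miRNAs called against day 0 or between later days, those over 2 times the array median on all 8 arrays, and lettered or paired-arm families, others after their values were seen. Sequences are those of RefSeq. Alternatives covered the scale, centring, a filter on dim miRNAs, array weights, the variance prior, the arrays fitted, the letters as a block and each array left out. Python 3.11.15 and matplotlib 3.10.9 drew the figures.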

Additional observations from a re-analysis of the deposited data

How the results depend on the processing

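With the letters a and b as a replicate block, the 7 calls of day 26 against day 12 became 4, and the other counts stayed within 1.5 times (9, 3 and 2 at days 12, 19 and 26 against day 0, 9 at day 19 against day 12, and 9 by the F test). Same-lettered arrays of different days did not deviate together (correlations of -0.15 to 0.05 across miRNAs). With mostly dim miRNAs on 2 arrays a day, this cannot exclude that the letters mark paired cultures. On raw log2 values centred on the array median, from the median or the mean of the features, 0 were called in all 6 comparisons and by the F test, with 5, 7, 18, 12 and 31 (median) or 6, 8, 25, 8 and 33 (mean) at an unadjusted p under 0.05 in the order of days 12, 19 and 26 against day 0, then days 19 and 26 against day 12. Raw values after quantile normalization gave 6 at day 12 and 5 at day 26 against day 0, 1 in each comparison with day 12, and 6 by the F test. There miR-1937b was called higher than at day 0 at days 12, 19 and 26 (0.56, 0.56 and 0.72 log2, adjusted p = 0.0395, 0.0295 and 0.0108), while on VSN values it was 0.07, -0.36 and 0.32 log2 and uncalled. The quantile normalized values of miR-1937b follow its rank beside miR-1937a and miR-2142, so their p does not measure the spread of its level. VSN values centred on the array median gave 1 at day 26 against day 0 and 6 by the F test. Without dim miRNAs the counts were 3 and 2 at days 12 and 19 against day 0, 0 and 1 at days 19 and 26 against day 12, and 2 by the F test. Array weights gave 3 and 1 at days 12 and 26 against day 0, 25 and 12 at days 19 and 26 against day 12, and 17 by the F test. A variance trend with a robust prior gave 1 at day 26 against day 0. With only the 4 arrays of the 2 days the counts were 0, 1 and 1 at days 12, 19 and 26 against day 0 and 17 at day 19 against day 12. The quantile normalized records of days 0 and 26 gave 4 at day 26. Counting only calls with raw signal over 1.5 times the array median on an array compared, chosen after seeing the data, left 3 and 2 at days 12 and 19 against day 0, and 1 and 4 at days 19 and 26 against day 12. Of the 4, miR-1939 and miR-2182 passed through day 26 b alone. With 1 array left out, the counts ranged from 1 to 15, 0 to 6 and 0 to 5 at days 12, 19 and 26 against day 0, from 0 to 20 and 0 to 15 at days 19 and 26 against day 12, and from 0 to 20 by the F test. A day left with 1 array is assumed to vary like the others. The causes of these changes were not tested. Counts over all miRNAs of the array under the settings tried are not given, so the changes cannot be read as particular to the 102. Day 26 against day 19 gave 0 throughout, with 0 to 11 at an unadjusted p under 0.05. All 36 called values kept their sign in the 301 alternative values and the 288 with an array left out. Of the 301, 144 were called. In many of these values the sign could not change. Leaving out an array of a day not compared keeps the fold change, as do settings that alter only the estimate of the spread. No call held in every alternative. Limits are the 2 arrays a day and the dim signal, since 72 of the 102 miRNAs never exceeded 1.5 times the array median.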
